A study of Homo sapiens with 17 samples.

Results

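The 5 genes described here make, use or regenerate S-adenosylmethionine (SAM), the methyl donor of the cell: MAT2A, MAT2B, METTL16, AHCY and MTR. They were chosen by symbol, for their place in the methionine cycle, and all 5 were among the 19222 genes of the 1 h table and in both 2 h tables. The cells were HEK-293T, a line of human embryonic kidney cells described as wild type and grown in DMEM with serum. In the 1 h experiment, 3 libraries came from cells given 500 µM 4-thiouridine (s4U) alone, called untreated here, and 3 from cells given 500 µM s4U with 1.8 µM emetine, an alkaloid that blocks translation elongation. A further untreated and a further emetine library, 1 of each, came from cells without s4U. In the 2 h experiment, all 9 libraries carried 250 µM s4U, and 1.8 µM or 240 µM emetine was given for 3 of them each, with 3 left untreated. Nothing in the labels says whether the replicates were separate cultures, so p-values measure the spread between these libraries, which may be technical.

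In the methionine cycle, MAT2A, the catalytic subunit of methionine adenosyltransferase outside the liver, joins methionine and ATP to form SAM. MAT2B is its regulatory subunit. Methyltransferases spend SAM and release S-adenosylhomocysteine, which AHCY splits into homocysteine and adenosine. MTR, the cobalamin-dependent methionine synthase, methylates homocysteine back to methionine with a methyl group from folate. METTL16 is an m6A methyltransferase that reads the SAM supply: it binds hairpins in the 3′ UTR of MAT2A mRNA, methylates them when SAM is plentiful, and promotes splicing of a retained MAT2A intron when SAM is scarce. TimeLapse-seq (TL-seq) reads RNA made during the s4U pulse as T-to-C conversions, so that each transcript has a level and a fraction new, which is the part of its reads from RNA made within the hour.

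MAT2A lies on chromosome 2 of GRCh38 (chr2:85539168-85545281, plus strand, 9 exons), and its transcript in GENCODE 44 is 2817 bases long, of which 1509 are 3′ UTR. The 9-base METTL16 site, TACAGAGAA or TACAGAAAA in DNA letters, was searched on the transcript strand of 16223 annotated 3′ UTRs, 1 per gene. It was found 6 times in the 3′ UTR of MAT2A and not in those of MAT2B, METTL16, AHCY or MTR. The 6 sites are shown because they are the sequence feature that sets MAT2A apart from the other 4 genes, each with 10 bases before and 11 after it, the site itself in capitals, 5′ to 3′.
MAT2A site 1: tggcgtaggcTACAGAGAAgccttcaagct
MAT2A site 2: tgtgatgtcaTACAGAGAAgtcacagggca
MAT2A site 3: ctggtgtagcTACAGAGAAaccagcttcct
MAT2A site 4: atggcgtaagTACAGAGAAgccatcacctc
MAT2A site 5: caaggtgtccTACAGAAAAaccttgggtta
MAT2A site 6: gctggtgtggTACAGAGAAgccagcttgtt
Site 1 lies at chr2:85543812-85543820, 40 bases into the 3′ UTR. Sites 2 to 6 lie at chr2:85544599-85544607, chr2:85544784-85544792, chr2:85544899-85544907, chr2:85545014-85545022 and chr2:85545122-85545130, between 827 and 1350 bases into it. Across all 3′ UTRs searched, 772 (4.76%) held at least 1 site. Of these, 729 held 1, 42 held 2 and 1, that of MAT2A, held 6. Among the 1085 3′ UTRs within 10% of the length of MAT2A's, 50 (4.61%) held a site.

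The bases that flank the MAT2A sites can pair with each other. For each site, the longest run among the 10 bases before it whose reverse complement occurs among the 11 bases after it was taken as an arm. Site 1 had an arm of 4 bases, sites 2, 3, 4 and 6 had arms of 5, and site 5 had an arm of 6, with caaggt before it and accttg after it. Arms of at least 4 bases flanked 6 of 6 MAT2A sites and 209 of 813 sites in other 3′ UTRs (25.7%). Arms of at least 5 bases flanked 5 of 6 MAT2A sites (83.3%) and 53 of the 813 others (6.52%). METTL16 was already known to bind hairpins in this 3′ UTR, as given above. The counts of sites and arms in MAT2A therefore describe it and are no test. These matches describe the letters of the annotated transcript, and methylation at the sites was not measured here.

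**Figure D1:**
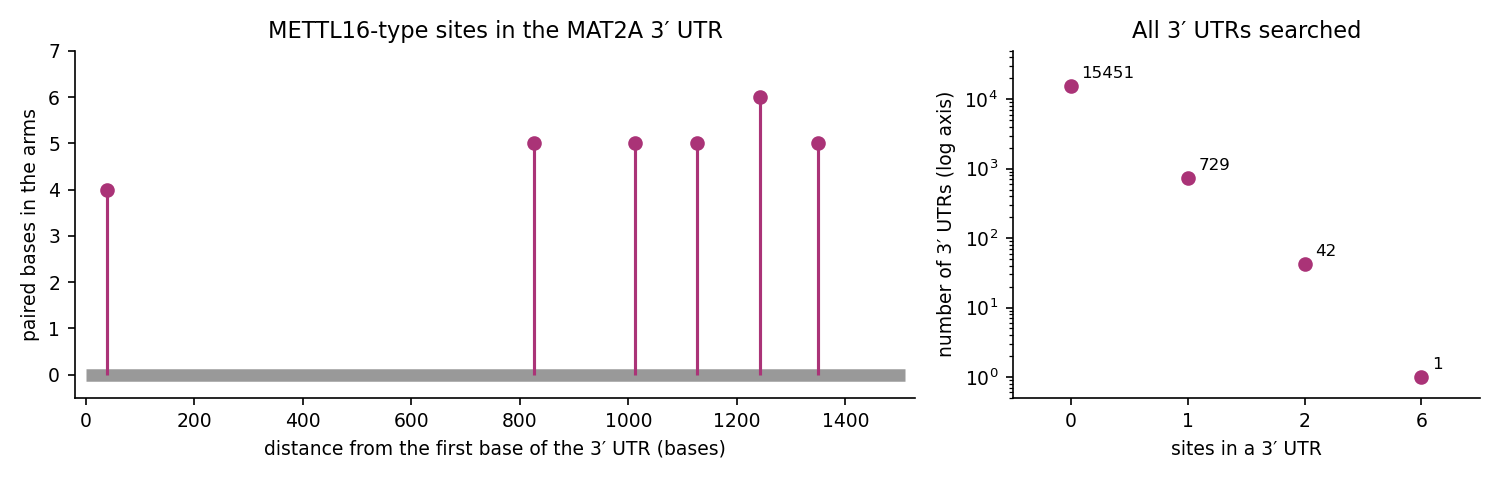
Left, the 3′ UTR of MAT2A as a gray bar, with the 6 METTL16-type sites placed by their distance in bases from its first base and drawn as high as the number of paired bases in their arms. Right, the number of 3′ UTRs (log axis) with 0, 1, 2 or 6 sites, the counts at which any 3′ UTR was found: 5 of the 6 MAT2A sites lie in the part of the 3′ UTR from base 827 on, and no other 3′ UTR held more than 2.

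The other 4 genes differ from MAT2A in length and base composition. MAT2B (chr5:163503114-163519558, plus strand, 7 exons) has a transcript of 2064 bases. AHCY (chr20:34280268-34311802, minus strand, 10 exons) has one of 2150 bases. METTL16 (chr17:2405562-2511891, minus strand, 10 exons) and MTR (chr1:236795260-236921278, plus strand, 33 exons) are longer, at 5740 and 10547 bases. GC content at the third codon position was 79.4% in AHCY, at the 85.1th percentile of 16284 coding genes. It was 41.3% in MAT2A and 39.2% in MAT2B, at the 17.7th and 14.2th percentiles, with METTL16 (48.6%) and MTR (49.1%) between.

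Depth and identity of the libraries touch all of the values below. Reads given to 1 gene numbered 22246279 to 40018063 per library in the 1 h experiment. The 4 HEK-293T markers (NEFL, NEFM, PAX2, LIN28B) were present in all 8 libraries. In the libraries with s4U they summed to 307 to 384 CPM (read counts scaled to library size) untreated and 304 to 394 with emetine. The sum rested on NEFL, NEFM and LIN28B. PAX2 had 1.17 to 2.89 CPM, a range like that of the muscle marker ACTA1 (1.20 to 2.60 CPM). Of the 9 markers of hepatocytes, leukocytes, endothelium and muscle, 8 were listed and PTPRC was not. CDH5, PECAM1, ALB and APOA2 had no read in at least 1 library and at most 10 in any. MAT1A had 4 to 21 reads and CD74 had 1 to 4 per library. The muscle pair, ACTA1 and DES, summed to at most 2.84 CPM in the libraries with s4U. Emetine replicate 3 stood apart from its group. Its deviations from the group means had a standard deviation of 0.256 on the log2 scale, against 0.131 and 0.152 in emetine replicates 1 and 2 and 0.080 to 0.097 in the untreated libraries. They also followed transcript length, with a Spearman correlation of 0.78 over 9582 genes, against -0.71 in each of the other two. The deviations of a gene within a group sum to 0, so these opposite signs are not independent. The biological coefficient of variation was 13.3% with all 6 libraries and 6.43% without this one, so values without it are given where they differ.

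The first comparison asks whether 1 h of emetine moved the level of the 5 transcripts. MAT2A had lower values with emetine, METTL16 higher ones, and MAT2B nearly the same ones, but none of the 5 passed the test across all genes. By edgeR's quasi-likelihood test with Benjamini-Hochberg adjustment, 0 of 5 were called at an adjusted p under 0.05, where 2.68% of the 13776 genes tested were called (2.64% higher and 0.0436% lower with emetine). At an unadjusted p under 0.05, MAT2A and AHCY passed, both lower. Of the 13776 genes, 958 passed lower and 2056 higher at that threshold.

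MAT2A was measured with 7835 to 15286 reads per library. It stood at 404, 438 and 370 CPM in the untreated libraries and at 303, 326 and 296 CPM in the emetine libraries, each given here and below in the order of replicates 1, 2 and 3. The groups did not overlap: the highest emetine library lay below the lowest untreated one, as it did for 15.2% of all genes tested. The means were 404 ± 34.1 and 308 ± 15.9 CPM (SD, n = 3 each), a change of -23.7% with emetine. The log2 fold change was -0.39 ± 0.10 (SE), with an edgeR adjusted p of 0.081, just above the threshold. Its fold change lay at the 3.44th percentile of all genes tested.

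The call for MAT2A depended on the fit. It passed with DESeq2's Wald test (log2 fold change -0.41, adjusted p = 0.0031), with a trend on length and GC content removed (-0.46, adjusted p = 0.0092 by edgeR), with all 8 libraries and s4U as a term (-0.39, adjusted p = 0.021 by edgeR) and without emetine replicate 3 (-0.36, adjusted p = 0.0052 by edgeR). It also passed with the trend removed and the replicate number as a block (-0.46, adjusted p = 0.014 by edgeR), and not with the block alone. Over the 6 fits that each left out 1 library, the fold change ranged from -0.45 to -0.33 and the adjusted p from 0.0052 to 0.34. In the pair without s4U, MAT2A stood at 404 CPM in the untreated and 306 CPM in the emetine library, a log2 ratio of -0.40, at the 6.10th percentile of all genes, with 1 library on each side and no test.

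The direction for MAT2A also depended on the scaling. When the libraries were scaled to spike-in reads, the median log2 fold change of all genes moved from 0.03 to 0.71. MAT2A then had a value of 0.26 ± 0.45 (SE, edgeR adjusted p = 0.59), which is above 0, and it stood at -0.45 relative to the median. AHCY likewise went from below 0 to 0.40 ± 0.45 (edgeR adjusted p = 0.44), or -0.30 relative to the median. All other changes in level are given relative to the bulk of the transcriptome, with TMM scaling.

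AHCY, the hydrolase of S-adenosylhomocysteine, was measured with 9514 to 16966 reads in the 6 libraries with s4U. It stood at 465, 482 and 449 CPM untreated and at 393, 424 and 358 CPM with emetine. These groups did not overlap either, as for 15.2% of all genes tested in this direction. The log2 fold change was -0.25 ± 0.10 (SE, edgeR adjusted p = 0.20), and it passed with the length and GC trend removed (-0.21, adjusted p = 0.047 by edgeR). With the replicate block added to that fit it did not (-0.21, edgeR adjusted p = 0.063). Without emetine replicate 3, the log2 fold change was -0.19 (edgeR adjusted p = 0.057). The pair without s4U stood closer together, at 417 CPM untreated and 393 CPM with emetine.

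METTL16, the hairpin methyltransferase, stood at 61.4, 61.2 and 63.6 CPM untreated and at 69.3, 63.7 and 86.4 CPM with emetine. The groups did not overlap, as for 19.5% of genes in this direction, but the gap between the highest untreated and the lowest emetine library was small. Its log2 fold change was 0.24 ± 0.12 (SE, edgeR adjusted p = 0.27), and 0.10 without emetine replicate 3. The pair without s4U stood at 60.4 CPM untreated and 70.9 CPM with emetine.

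MTR, the methionine synthase, stood at 120, 122 and 114 CPM untreated and at 113, 118 and 169 CPM with emetine. The high value in emetine replicate 3 alone lay above the untreated range. The log2 fold change of 0.17 ± 0.15 (SE, edgeR adjusted p = 0.50) turned to -0.03 without that library and to -0.08 with the length and GC trend removed. MTR has the longest transcript of the 5, and emetine replicate 3 had its deviations ordered by length, as given above.

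MAT2B, the regulatory subunit, stood at 90.1, 91.0 and 92.5 CPM untreated and at 91.9, 89.6 and 99.8 CPM with emetine. The ranges overlapped, and the log2 fold change was 0.04 ± 0.08 (SE, edgeR adjusted p = 0.79). In the pair without s4U it stood at 88.9 CPM untreated and 78.5 CPM with emetine, the lowest of its 8 values. The difference between the changes of the catalytic and the regulatory subunit was not tested.

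**Figure D2:**
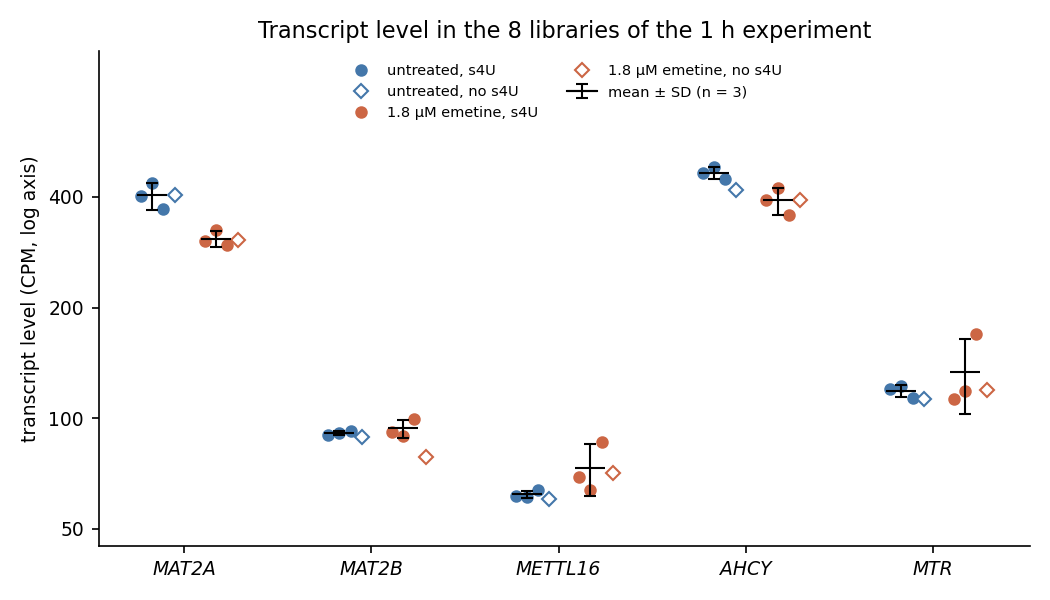
Transcript level (CPM, log axis) of the 5 genes in the 8 libraries of the 1 h experiment, with s4U (filled points, bars for mean ± SD, n = 3) and without s4U (open diamonds, 1 library each). MAT2A lies between 370 and 438 CPM in the untreated and between 296 and 326 CPM in the emetine libraries with s4U, and emetine replicate 3 is the high point of MTR, at 169 CPM.

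**Figure D3:**
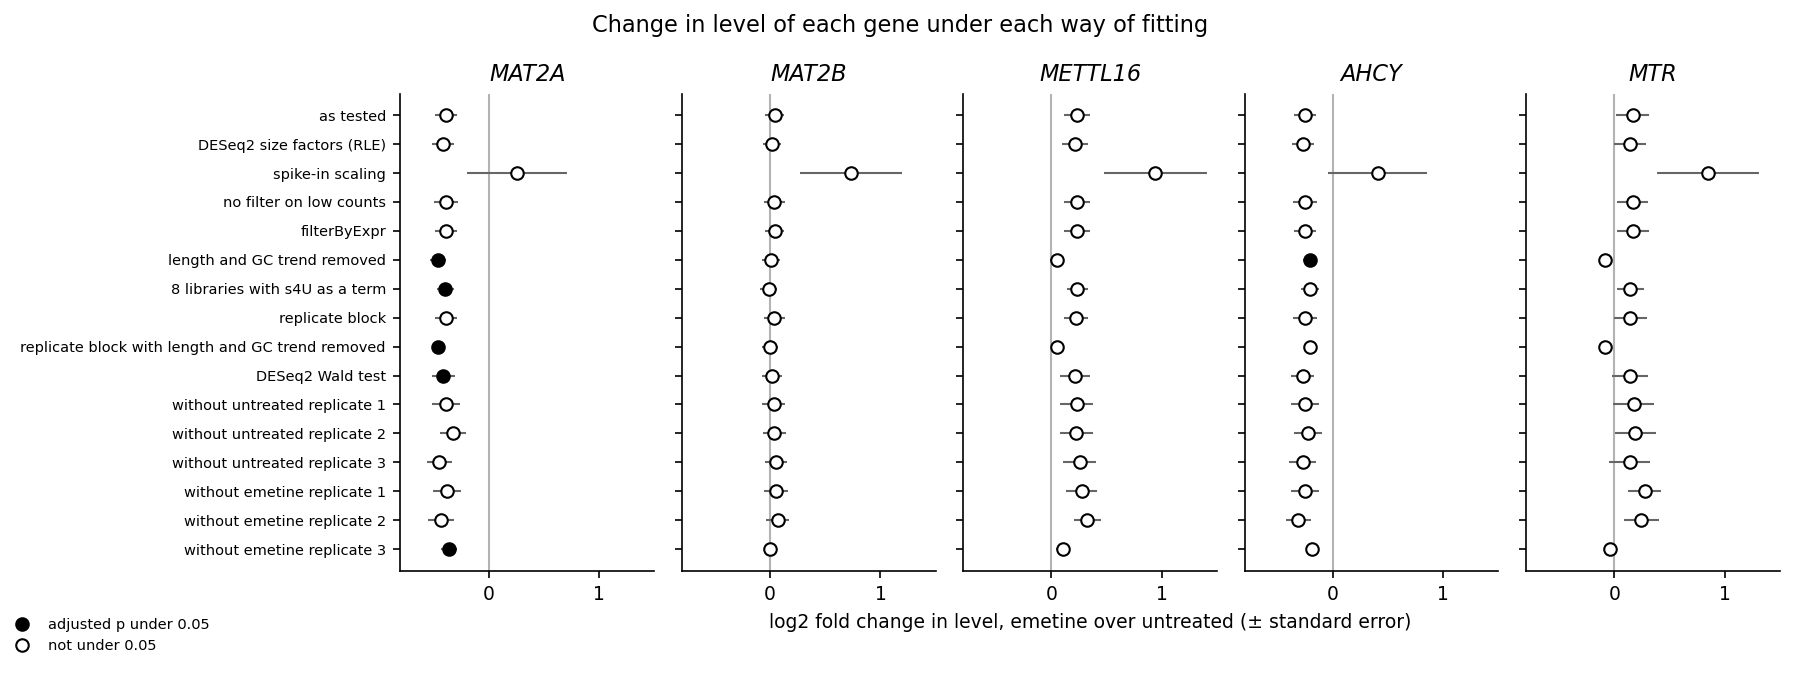
Log2 fold change in level (emetine over untreated, bars for the standard error) of each gene under the fit as tested and under each other fit, named on the left, filled where the adjusted p was under 0.05. MAT2A lies between -0.46 and -0.33 in every fit but the one scaled to spike-in reads (0.26), and is filled in 5 of 16.

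Compared per length, AHCY was the most abundant of the 5 transcripts. In untreated cells its level was 216 ± 7.61 CPM per kilobase (SD, n = 3), followed by MAT2A at 143 ± 12.1, MAT2B at 44.2 ± 0.601, MTR at 11.3 ± 0.423 and METTL16 at 10.8 ± 0.234. The order of the first 3 held in 6 of 6 libraries with s4U. MTR and METTL16, the last pair, overlapped in untreated cells, with MTR higher in 4 of the 6 libraries. Among 13486 genes with a length, AHCY and MAT2A stood at the 96.7th and 94.7th percentiles of level per kilobase, MAT2B at the 84.4th, and MTR and METTL16 near the middle, at the 59.9th and 59.1th.

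In the 2 h experiment only a pooled value was used, the authors' mean normalized count over the libraries of all 3 treatments. This mean was 4784 for MAT2A, 9625 for MTR, 3075 for AHCY, 1654 for MAT2B and 1373 for METTL16. Per kilobase of transcript, MAT2A came first at 1698 and AHCY next at 1430, then MTR at 913, MAT2B at 801 and METTL16 at 239. MTR thus stood at the 88.1th percentile of 9906 genes in the 2 h tables, against the 59.9th of a different set of 13486 genes at 1 h. The 2 experiments differed in the library kit (TruSeq Stranded mRNA at 1 h, a SMARTer total RNA kit at 2 h), the s4U dose, the time and the mix of treatments, which cannot be told apart, and no error can be given for a pooled mean.

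The second comparison asks how much of each transcript was made within the hour, and whether emetine moved that share. The 5 genes spanned a wide range, from AHCY, nearly all of it older than 1 h, to MAT2A, with a large new part. None of the 5 was called between treatments by limma on the logit of the fraction new (0 of 5, where 4.95% of 10763 genes were called, 0.195% higher and 4.76% lower with emetine).

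MAT2A had a fraction new of 29.7, 33.8 and 40.7% untreated and of 31.6, 31.8 and 33.3% with emetine. All 3 emetine values fell within the untreated range. The means were 34.7 ± 5.59% and 32.2 ± 0.957% (SD, n = 3 each), and the difference in logit was -0.11 ± 0.22 (SE, limma adjusted p = 0.88). In untreated cells MAT2A stood at the 88.6th percentile of fraction new among the 10763 genes. Under a steady state with labeling from the start of the hour, these fractions correspond to half-lives of 1.97, 1.68 and 1.33 h in the untreated libraries. The same formula gave 1.83, 1.81 and 1.71 h in the emetine libraries. There the level of MAT2A was lower, so a steady state may not hold and these values do not measure its lifetime under emetine.

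METTL16 came next, with a fraction new of 15.6, 20.3 and 25.6% untreated and of 18.8, 18.1 and 18.1% with emetine. The emetine values again fell within the untreated range. MAT2B followed, at 11.3, 16.8 and 16.0% untreated and 12.2, 12.9 and 11.7% with emetine. MTR was close to it, at 10.9, 14.1 and 16.2% untreated and 13.0, 12.1 and 11.4% with emetine. These 2 could not be ordered: MAT2B was higher in 4 libraries and MTR in 2. AHCY was the oldest RNA of the 5, at 2.83, 4.11 and 4.81% untreated and 3.82, 4.34 and 4.38% with emetine. Its mean half-life came to 18.3 ± 5.27 h in untreated cells, against 1.66 ± 0.323 h for MAT2A (SD, n = 3 each). The AHCY value extrapolates far beyond the 1 h pulse, from 2.83 to 4.81% new. The MAT2A value rests on all its reads, of which those across a junction had a lower fraction new, as given below.

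The order from MAT2A to METTL16 held in 6 of 6 libraries, as did METTL16 above MTR and MAT2B, and all 4 above AHCY. In untreated cells the range of METTL16 overlapped those of MAT2B and MTR, while MAT2A and AHCY overlapped no other gene. The differences in logit for METTL16, MAT2B, MTR and AHCY were -0.12 ± 0.21, -0.20 ± 0.21, -0.13 ± 0.21 and 0.09 ± 0.23 (SE), with limma adjusted p-values from 0.73 to 0.91. The median difference over all genes was -0.16. With each library centered on its median, those of MAT2A, METTL16 and MTR moved to 0.02, 0.01 and 0.00.

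The spread of fraction new among untreated libraries was shared with the rest of the transcriptome. The median over all 10763 genes was 9.35, 12.5 and 14.8% untreated and 10.7, 11.1 and 10.4% with emetine. MAT2A, METTL16, MTR and AHCY each had their lowest untreated value in replicate 1 and their highest in replicate 3, and MAT2B had its highest in replicate 2. The part of labeling efficiency in this spread was not tested.

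Without s4U, conversions were rare in all 5 genes. Reads with at least 2 conversions made up 8 of 9527 MAT2A reads in the untreated library (0.084%, 95% Wilson interval 0.043 to 0.166%) and 4 of 9716 in the emetine library (0.041%, 0.016 to 0.106%). With s4U, 26.0 to 33.3% of MAT2A reads carried at least 2. In AHCY, the gene with the lowest share, 2.37 to 3.67% of reads did, against 3 of 9823 (0.031%, 0.010 to 0.090%) and 3 of 12491 (0.024%, 0.008 to 0.071%) without s4U. Such intervals cover counting error only.

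**Figure D4:**
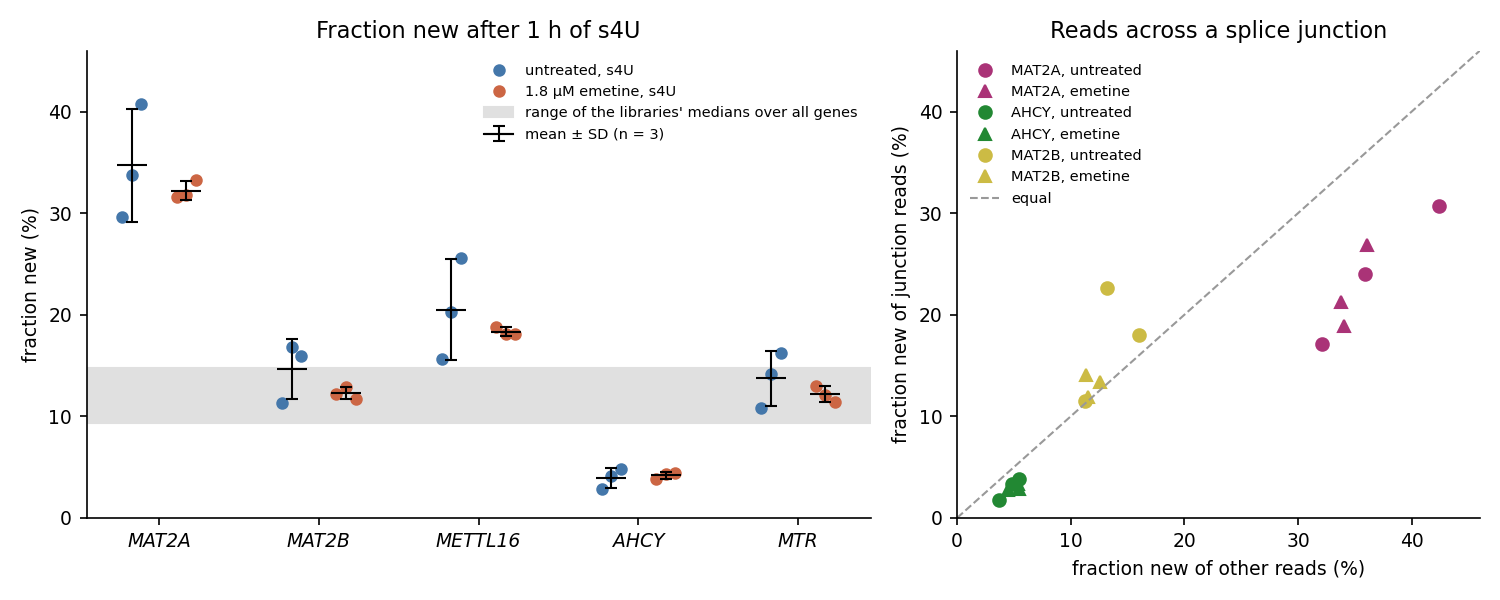
Left, fraction new (%) of the 5 genes in the 6 libraries with s4U (points, bars for mean ± SD, n = 3), with the range of the libraries' medians over all genes in gray. Right, fraction new of reads across a splice junction against that of other reads in MAT2A, AHCY and MAT2B, 1 point per library, where the 6 MAT2A points lie below the line of equality.

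Splitting each level by its fraction new separates RNA made during the hour from RNA present before it. For MAT2A, both parts had lower means with emetine, and neither passed the test. Labeled MAT2A came to 120, 148 and 151 CPM untreated and to 95.6, 104 and 98.5 CPM with emetine, without overlap. The labeled reads of 11.5% of genes did not overlap in this direction, and those of 3.3% in the other. Its log2 fold change, after 0.5 CPM were added, was -0.48 ± 0.20 (SE, limma adjusted p = 0.27), and -0.59 with an adjusted p of 0.015 by limma without untreated replicate 1. Unlabeled MAT2A came to 284, 290 and 219 CPM untreated and to 207, 223 and 197 CPM with emetine, where the lowest untreated library lay inside the emetine range. Its log2 fold change was -0.33 ± 0.12 (SE, limma adjusted p = 0.15). Scaled to spike-in reads, both turned positive, to 0.14 and 0.30, against medians over all genes of 0.41 and 0.66.

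Among the other genes, labeled reads were closer to the untreated values and unlabeled reads followed the levels. The log2 fold changes of labeled reads were -0.19 for MAT2B, -0.12 for AHCY, -0.01 for MTR and 0.09 for METTL16. Those of unlabeled reads were -0.26 for AHCY, 0.08 for MAT2B, 0.17 for MTR and 0.26 for METTL16. Without emetine replicate 3, the labeled reads of METTL16 and MTR stood at -0.02 and -0.15, and the unlabeled reads of MAT2B, MTR and METTL16 at 0.03, -0.02 and 0.14. Of the 5 genes, 0 were called for labeled reads, where 0.911% of genes were (0.26% higher and 0.65% lower with emetine), and 0 for unlabeled reads, where 7.42% of genes were (7.33% higher and 0.0929% lower with emetine). For AHCY, the unlabeled reads passed without emetine replicate 3 (-0.19, adjusted p = 0.046 by limma).

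The fold change of MAT2A lay below that of most transcripts with a fraction new at least as high. In untreated cells, 1232 of 10763 genes had a fraction new at least as high as that of MAT2A, MAT2A included. This set held far higher fractions new, up to at least 97.0%. Their median log2 fold change in level was 0.38, against 0.01 over all 10763, and 1078 of them (87.5%) lay above 0, against 52.0% of all. Of the 1232, edgeR called 248 higher and 1 lower. MAT2A was among the 10 (0.812%) with a fold change of -0.39 or below. Under each other fit, the genes of this set at or below MAT2A's own value in that fit numbered 5 to 20. With spike-in scaling there were 7, counted at or below a MAT2A value of 0.26, so they need not have fallen. The fraction new and the fold change share the untreated libraries, so this is given as a description, with no test.

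**Figure D5:**
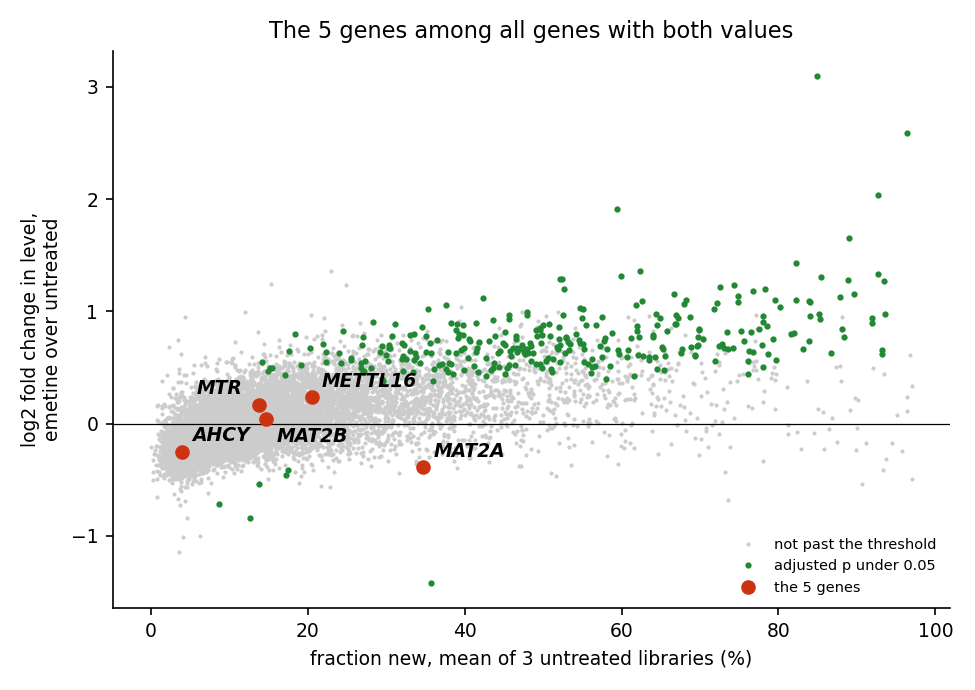
Log2 fold change in level (emetine over untreated) against fraction new (%, mean of 3 untreated libraries) for 10763 genes, with genes past the edgeR threshold in green and the 5 genes in red. MAT2A, at 34.7% and -0.39, lies under most genes of its fraction new, and the other 4 lie inside the cloud.

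The third comparison concerns splicing, because the last intron of MAT2A is known for regulated retention. The table marks reads that cross a splice junction. They made up 16.6, 18.1 and 14.6% of MAT2A reads untreated and 16.8, 16.1 and 29.9% with emetine. The emetine libraries other than replicate 3 fell inside the untreated range. The difference in logit was 0.26 ± 0.26 (SE, limma adjusted p = 1.00). Without emetine replicate 3 it was 0.01. No gene of 10685 was called for this share by limma (0%), 144 had an unadjusted p under 0.05, and none of these was among the 5 genes. So few are below the number that this threshold gives with no difference at all. The test was thus conservative, and its lack of calls says little. Without emetine replicate 3 it called 15 genes, none of the 5 among them.

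The same library carried the junction shares of MTR and METTL16. MTR had 5.22, 6.42 and 5.93% untreated and 6.51, 6.52 and 23.3% with emetine. METTL16 had 3.15, 4.63 and 5.56% untreated and 5.28, 5.48 and 13.2% with emetine. For both, emetine replicates 1 and 2 lay within or just above the untreated range. AHCY and MAT2B, with the highest junction shares, showed no such value: AHCY ranged from 38.7 to 48.1% untreated and from 39.2 to 47.9% with emetine, and MAT2B from 30.1 to 42.4% and from 32.8 to 42.4%. Over all genes, the junction share of emetine replicate 3 was 45.4%, within the range of the untreated libraries (44.3 to 50.5%). In the pair without s4U, the MAT2A share was 14.1% untreated and 13.8% with emetine. Reads inside the retained intron were not analysed here.

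Within MAT2A, reads across a junction had a lower fraction new than the other reads. Their fraction new was 17.1, 24.0 and 30.7% untreated, against 32.2, 35.9 and 42.4% for the other reads. With emetine it was 18.9, 21.2 and 26.9%, against 34.1, 33.8 and 36.1%. The junction reads were lower in 6 of 6 libraries, each with 1140 to 2760 such reads. AHCY had the same order in 6 of 6 libraries, at 1.77 to 3.83% against 3.64 to 5.43%. MAT2B had the opposite order in 6 of 6, at 11.5 to 22.6% against 11.2 to 16.0%.

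The order seen in MAT2A was common. Of 6220 genes with at least 100 junction and 100 other reads in each library, 3268 (52.5%) had fewer junction reads with at least 2 conversions in all 6 libraries, as MAT2A and AHCY did, and 91 (1.46%) had more in all 6. This share of reads, unlike the fraction new, takes no account of the number of T positions in a read. By it, MAT2B junction reads were lower in 2 of 6 libraries. METTL16, with 54 to 304 junction reads per library, had too few for this count.

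A list of 46 other genes of the pathway was examined beside the 5. Of these, 44 were in the 1 h table (BHMT and BHMT2, the betaine-dependent methyltransferases, were not), 42 had enough counts for the test of level and 40 for the other tests. MAT1A, the liver form of the SAM synthetase, had 87 reads in all 6 libraries together and was not tested. In level, edgeR called 1 of 42 higher and 0 lower, where 2.64% of all genes were called higher and 0.0436% lower, so the count is near that of the background. The median log2 fold change of the list was -0.05, with 17 genes above 0 and 25 below, against a median of 0.03 over all genes.

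The gene called was METTL14, the partner of METTL3 in the main m6A writer, which installs m6A at sites other than those of METTL16. It stood at 18.1, 18.6 and 16.1 CPM untreated and at 26.2, 24.4 and 25.9 CPM with emetine. The groups did not overlap, as for 19.5% of all genes tested in this direction. The pair without s4U stood at 18.8 CPM untreated and 27.0 CPM with emetine. METTL14 rose by 0.53 ± 0.10 on the log2 scale (SE, edgeR adjusted p = 0.036), and its unlabeled reads rose by 0.73 ± 0.13 (limma adjusted p = 0.011). Over all genes, 7.33% were called higher for unlabeled reads. The labeled reads of METTL14 had a log2 fold change of 0.06 ± 0.25 (limma adjusted p = 0.96). Its fraction new was 32.7, 39.5 and 39.0% untreated and 28.8, 28.2 and 23.5% with emetine, a difference in logit of -0.48 ± 0.21 (SE, limma adjusted p = 0.22). METTL14, with a mean untreated fraction new of 37.1%, was among the 1232 genes at or above MAT2A. In level, 248 of those genes were called higher. Both calls for METTL14 depended on the fit. The level was not called with the replicate block (0.53, edgeR adjusted p = 0.098), with the length and GC trend removed (0.30, edgeR adjusted p = 0.11), with both (0.30, edgeR adjusted p = 0.076) or with spike-in scaling (1.21, edgeR adjusted p = 0.18). In the 5 fits that left out 1 library other than emetine replicate 3, it was 0.48 to 0.57 and not called. The unlabeled reads were not called with the replicate block (0.73, limma adjusted p = 0.060), with spike-in scaling (1.33, limma adjusted p = 0.10), or without untreated replicate 2 or 3 (0.74 and 0.65, limma adjusted p = 0.061 each).

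By role, the writers, readers and erasers of m6A, 7 genes, had 1 called higher and 0 lower in level, with a median of 0.11. The 4 tested genes of methionine regeneration had a median of 0.08, and the 5 of homocysteine and adenosine removal one of 0.00. The 8 genes of methionine salvage and decarboxylated SAM use had a median of -0.12, and the 8 of folate supply one of -0.11, with 1 above 0 and 7 below. The 3 of methionine uptake had a median of -0.20, and the 4 tested of other SAM users and carriers one of -0.31. The 2 factors of 3′ end processing had values of -0.01 and 0.02, and the single SAM sensor, BMT2 (also called SAMTOR, and listed under an older symbol), had one of 0.42 (edgeR adjusted p = 0.25). In the fit as tested, METTL14 was the only gene called in any role. The fit with the length and GC trend removed called 751 of the 13776 genes higher and 702 lower, so calls were common in it. In the list, it called SLC3A2 higher (0.25, edgeR adjusted p = 0.035) and 4 genes lower. These were SLC7A5, which forms an amino acid transporter with SLC3A2 (-0.40, edgeR adjusted p = 0.0037), the 3′ end factor NUDT21 (-0.22, edgeR adjusted p = 0.033), ADI1 of methionine salvage (-0.29, edgeR adjusted p = 0.040) and MMADHC of cobalamin handling (-0.22, edgeR adjusted p = 0.039). SLC7A5 was also called lower with the replicate block added to that fit, with all 8 libraries and with DESeq2, at -0.40, -0.33 and -0.34. Over all genes, these fits called 356, 31 and 156 lower. The lowest value in the list was that of SRM, spermidine synthase, at -0.39 ± 0.16 (SE, edgeR adjusted p = 0.21).

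Without emetine replicate 3, edgeR called 5 of the 42 higher and 3 lower. Those higher were AMD1, the SAM decarboxylase, MTRR, the reductase that reactivates MTR, YTHDC1, a nuclear m6A reader, SLC3A2 and METTL14. Those lower were PEMT, which methylates phosphatidylethanolamine, SRM and SLC7A5. Of at most 13776 genes tested, that fit called 1892 (1367 higher and 525 lower), against 369 with all 6 libraries, so calls were common in it. In fraction new, labeled reads and junction share, 0 of 40 were called. The highest difference in logit fraction new was that of CBS, cystathionine beta-synthase, at 0.62 (limma adjusted p = 0.66), and the lowest that of METTL14. Without untreated replicate 1, limma called 1 of the list (CTH) higher and 9 lower in fraction new. It then called 2643 of 10763 genes (42 higher and 2601 lower), so the share called in the list was close to that over all genes. In labeled reads it called CTH higher and 10 lower, when it called 1870 of 10763 genes (66 higher and 1804 lower). In untreated cells the fraction new of the list ran from 1.59% in GAMT, the guanidinoacetate methyltransferase, to 43.9% in BMT2.

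By likeness, the 3 genes whose logit fraction new lay closest to that of MAT2A over the 6 libraries, among 9582 genes with a mean of at least 10 CPM, were DYRK1B, VGLL4 and WNT5A. Their root mean square differences from it were 0.087, 0.096 and 0.097. Their log2 fold changes in level were 0.12, 0.05 and 0.17, against -0.39 for MAT2A, and none passed the test by edgeR. The 3 genes whose log2 CPM was most correlated with MAT2A over the 8 libraries were CKAP4, SIRPA and RABL6, with Pearson's r of 0.97, 0.97 and 0.96. These 8 libraries fall into 2 treatments, which all 4 genes share, and the log2 fold changes of the 3 genes were -0.21, -0.26 and -0.22. Their fractions new in untreated cells were 10.2, 13.3 and 3.12%, lower than the 34.7% of MAT2A.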

How the data were processed

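TL-seq libraries of HEK-293T cells were compared as grouped by their labels. The 5 genes and all lists were chosen with earlier results of these data known. For the 1 h experiment, the authors trimmed reads with cutadapt, aligned them to hg38 with a HISAT aligner and deposited unnormalized read counts per library, gene, T positions and T-to-C conversions. The 2 h tables hold the authors' own log2 fold changes and p-values, which were not used, and their mean normalized count (a signal made by the authors with spike-in size factors, averaged over all treatments), which was.

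Counts were summed per gene and compared with edgeR 4.0.16 (TMM, quasi-likelihood test, genes with more than 100 counts in total, R 4.3.3). Reads given to no gene (16.0 to 17.2%), to several genes (0.976 to 1.09%) or to spike-ins (0.304 to 0.728%) were left out. The fraction new was the maximum likelihood weight of a 2-component binomial mixture. Its background rate came from the library without s4U of the same treatment, and its new-read rate was fitted per library. Logit fraction new (bounded at 0.001 and 0.999), log2 labeled and unlabeled CPM (0.5 added) and logit junction share were compared with limma 3.58.1 where every library held at least 100 reads of a gene. All p-values were adjusted by Benjamini-Hochberg over all genes tested. With 3 libraries against 3, an exact permutation test of 1 gene cannot go below p = 0.1. Half-lives are -ln(2) times 1 h over ln(1 - fraction new). Annotation was GENCODE 44 on GRCh38, 1 transcript per gene.

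The text names the 5 genes, the list genes called in any test as first fitted, the highest and lowest of the list, and the 3 genes most like MAT2A by each of 2 measures. List genes named as called under another fit or without 1 library, and those of groups at 0 or not listed, were chosen after their values were seen. So were the markers given with their own values. Alternatives were other scaling, filters, rates, added CPM, read minimums (50 and 500), DESeq2 1.42.0, a length and GC trend (mgcv 1.9.3), a replicate block and leaving out each library. The fits were tested on simulated data with independent noise per gene and library. Those data held no deviations ordered by transcript length, such as emetine replicate 3 had. Tables and figures were made in Python 3.11.15 with pandas 2.3.3, scipy 1.17.1, numpy 2.4.6 and matplotlib 3.10.9.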

Additional observations from a re-analysis of the deposited data

How the results depend on the processing

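As tested, none of the 5 genes was called for level, fraction new, labeled or unlabeled reads, or junction share. Under the other settings tried, 279 of 320 values of these genes stayed on the same side of 0 and of the threshold, 8 passed the threshold and 33 changed sign, none of them called. Spike-in scaling moved the level of MAT2A and AHCY to 0.26 and 0.40, the labeled reads of MAT2A, MAT2B, AHCY and MTR to 0.14, 0.41, 0.49 and 0.60, and the unlabeled reads of MAT2A and AHCY to 0.30 and 0.37. It called 60 genes for level, 10 for labeled and 392 for unlabeled reads. The length and GC trend, once removed, gave -0.46 for MAT2A, -0.21 for AHCY and -0.079 for MTR in level, with 1453 genes called (751 higher and 702 lower). All 8 libraries gave -0.39 for MAT2A and -0.0145 for MAT2B, with 675 called. DESeq2 gave -0.41 for MAT2A, with 976 called. Centered fractions new were 0.021 for MAT2A, 0.0079 for METTL16 and 0.0001 for MTR, with 878 called, and a centered junction share was -0.027 for MAT2B. Fraction new called 316 genes at 50 reads, 255 at 500 and 38 when weighted by reads, and unlabeled reads called 234 at 500 reads. The cause of these shifts was not tested.

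Correlations of the deviations of same-numbered replicates from the group means were 0.06, -0.04 and -0.22 for level and 0.06, 0.00 and 0.02 for fraction new, over 9582 and 10763 genes. Those of differently numbered replicates ran from -0.29 to 0.21 and from -0.04 to 0.02. A shift common to all genes of a library does not enter such a correlation, and deviations within a group sum to 0. These values therefore cannot tell whether same-numbered replicates were paired. The replicate block called 78 genes for level, 369 for unlabeled reads and 6 for junction share, and none of the 5 genes. With the length and GC trend removed as well, it called 883 genes, MAT2A (-0.46) among them, and gave MTR -0.080.

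Leaving out each library in turn, calls ranged from 4 to 1892 for level, 111 to 2643 for fraction new, 15 to 1870 for labeled reads, 277 to 1882 for unlabeled reads and 0 to 15 for junction share. The highest count came without emetine replicate 3 for level, unlabeled reads and junction share, and without untreated replicate 1 for fraction new and labeled reads. Levels ranged from -0.45 to -0.33 for MAT2A, -0.0025 to 0.0695 for MAT2B and -0.034 to 0.28 for MTR. Fractions new ranged from -0.22 to 0.025 for MAT2A, -0.28 to 0.035 for METTL16 and -0.065 to 0.21 for AHCY. Labeled reads ranged from -0.59 to -0.42 for MAT2A, -0.093 to 0.27 for METTL16, -0.33 to 0.014 for AHCY and -0.16 to 0.085 for MTR. Unlabeled reads ranged from -0.31 to -0.19 for AHCY and -0.0165 to 0.29 for MTR. Junction shares ranged from -0.12 to 0.15 for MAT2B and -0.11 to 0.085 for AHCY. The labeled reads of METTL14 ranged from -0.0069 to 0.15. The junction share of METTL16 rested on 54 to 304 junction reads per library, fewer than that of MAT2A or MAT2B.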
